A study of Mus musculus with 73 samples.

Results

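The 115 genes described here were read almost entirely from the BDF1 alleles in hybrid mouse embryos at embryonic day 6.5 (E6.5). They were selected on the CAST share, the percentage of allele-informative reads that carry the CAST base: autosomal genes were kept where its mean was at most 15.0% in each of 4 wild-type groups. A library entered the mean with at least 20 reads on the gene, and a gene needed at least 3 such libraries in every group. Of 29557 autosomal genes in the deposited table, 6294 met that read minimum and 115 of those (1.83%) met the limit on the share. The wild-type shares below are what chose these genes, so they are given as a description with no test.

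BDF1 mice are hybrids between C57BL/6 and DBA, both laboratory strains. CAST mice descend from wild animals. Wild-type Bdf1xCast embryos (mother named first) came from CAST sperm injected into BDF1 oocytes and gave 7 epiblast and 7 extraembryonic ectoderm (ExE) libraries. Wild-type CastxBdf1 embryos came from natural mating and gave 4 and 4, so the direction of the cross cannot be told apart from the mode of fertilisation. The knockouts were Bdf1xCast zygotes injected at a pronuclear stage with Cas9 mRNA and several guide RNAs, so each embryo was edited on its own. Dnmt1, which maintains DNA methylation, was targeted in 3 epiblast and 3 ExE libraries. A double knockout of Ehmt1 and Ehmt2, whose products Glp and G9a methylate lysine 9 of histone H3, gave 6 and 8 (G9a-Glp). Rnf2, of the Polycomb complex PRC1, gave 6 and 5, and Eed, of PRC2, gave 9 and 10. Injected embryos of all these groups developed in CD-1 foster mothers. Epiblast, which forms the embryo proper, and ExE, which contributes to the placenta, were separated from each embryo, and numbers below are the embryo numbers of the labels. For Eed embryos 8, 9 and 10 the numbers that open the library titles differ between the tissues, but the labelled embryo numbers join tissues of the same sex in all 31 pairs.

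In a hybrid embryo most genes are read from both parental copies at similar levels. A read can be assigned to a strain only where it covers a base that differs between the strains, so the share measured for a gene depends on its transcripts and also on how reads are placed on the genome. Processed pseudogenes and other retrocopies arise when a messenger RNA is copied back into the genome. They resemble the gene they came from, and many lie inside an unrelated host gene. A share that follows the strain in both directions of a cross differs from imprinting, in which the share follows the parent and turns over with the cross.

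The libraries held 1141414 to 17653087 informative reads. Messenger RNA of the targeted gene lay below every wild-type library in all 9 epiblast and 10 ExE Eed libraries and in the 3 Dnmt1 epiblast libraries, but it overlapped the wild type in others. None of the 5 Rnf2 ExE libraries lay below all wild-type libraries, and Ehmt2 stood at 3.07 ± 1.43 CPM (counts scaled to 1000000 informative reads of a library) in G9a-Glp epiblast (SD, n = 6) against 3.07 ± 2.27 (n = 7) in the wild type, with 0 of 6 below. Ehmt1 lay below every wild-type library in 2 of the 6, and Rnf2 lay below the wild-type median in 4 of the 5 Rnf2 ExE libraries. Rnf2 ExE embryos 2, 5 and 6, Dnmt1 ExE embryo 1, and G9a-Glp epiblast embryos 2 and 7 are set aside in a setting below for targeted mRNA at the wild-type level. They were picked after the values were seen, and the other libraries of these groups had not all lost the mRNA. Among the wild-type libraries, Bdf1xCast epiblast embryo 8 and ExE embryos 6 and 8 stood apart, with median correlations to their group of 0.843, 0.909 and 0.931 against at least 0.953 for the other Bdf1xCast libraries of epiblast and 0.973 for those of ExE. Counts that rest on these libraries are given with and without them. The summed level of 7 markers of decidua, maternal blood and stroma reached at most 32.4 CPM in any library.

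Mir682 and Mir703, 2 microRNA genes, are shown first because each is a single short annotated product. Their mature sequences, from RefSeq on GRCm38.p6, read 5′ to 3′ as follows, with the seed (bases 2 to 8) in capitals.
mmu-miR-703: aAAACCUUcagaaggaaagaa
mmu-miR-682: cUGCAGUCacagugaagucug
The seeds differ. The mature miR-703 lies at chr5:98475616-98475636 on the minus strand, within a hairpin of 109 bases at chr5:98475556-98475664. The mature miR-682 lies at chr13:75645119-75645139 on the plus strand, within a hairpin of 96 bases at chr13:75645046-75645141. The reads counted here come from full-length cDNA of longer RNA. They are reads placed over the hairpin locus and do not measure the mature microRNA. Whether they come from transcripts of that locus or from similar sequence elsewhere was not tested. Mir703 held 97.6% of the 16140 wild-type reads of 1700007G11Rik, the gene it lies in. Mir703 had 280 CPM on average over the 22 wild-type libraries, with 33 CAST reads of 15751 (0.210%). Mir682 had 512 CPM and no CAST read among 30155. In the 4 wild-type CastxBdf1 epiblast libraries Mir682 stood at 642, 580, 462 and 417 CPM, and in the 7 Bdf1xCast epiblast libraries it ran from 437 through a median of 529 to 1310 CPM. The highest value belonged to embryo 8, and no library of either cross had a measurable CAST share.

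The distribution of CAST shares over all 6294 genes was centred near equal expression, with a pooled median of 46.4% over the 6179 genes outside the 115. The genes at the BDF1 end formed a tail with a median pooled share of 3.25%. Of the 115, 35 had a pooled share under 1% and 69 under 5%, while 15 stood at 10% or more. The rule applied in mirror image, a share of at least 85% in each group, held 22 genes, of which 16 had clone names (Gm, LOC or Rik) and whose median level was 28.4 CPM. Just inside the limit were Hp1bp3 with 15.0% in its highest group, Armc10 with 14.8% and Usmg5 with 14.8%. Just outside were Nsa2 with 15.3%, Znrd1as with 15.3% and Psmd2 with 15.4%.

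**Figure D1:**
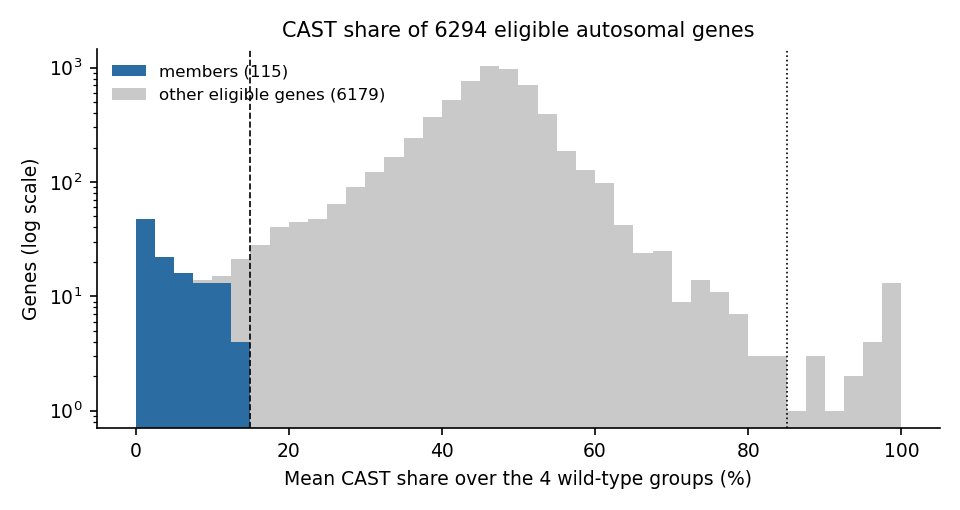
Number of eligible autosomal genes (log scale) by mean CAST share over the 4 wild-type groups, with the 115 genes in blue, the other 6179 in grey, and lines at 15.0% and 85%. Most genes lie near equal expression, and grey genes left of the lower line had at least 1 group above the limit.

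Gm26901, the predicted gene that was given as a marker of this set (chr1:7314638-7398666, mm10), did not meet the rule. It had 20 or more reads in 6 of 7 libraries of each Bdf1xCast tissue but in only 1 and 2 of the 4 CastxBdf1 epiblast and ExE libraries. Its reads were nevertheless nearly all BDF1, with 2 CAST reads of 276 and 1 of 228 in Bdf1xCast epiblast and ExE, and 0 of 78 and 1 of 86 in CastxBdf1. With a minimum of 10 reads a library it would have been among 135 genes, 114 of them shared with the 115.

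Between the crosses, the median absolute difference of a gene's share was 0.500 percentage points in epiblast and 0.536 in ExE. The largest differences were 4.86 points for Hist1h2bm, a histone H2B gene, and 8.36 points for the long noncoding RNA LOC108168883. Between Bdf1xCast ExE and epiblast the median difference was 0.571 points and the largest 10.6, for Gm13201. The reads of all 115 genes summed gave 2.79% ± 0.20 CAST (SD, n = 7) in Bdf1xCast epiblast, 2.80% ± 0.185 (n = 7) in ExE, and 2.64% ± 0.0758 and 2.67% ± 0.175 (n = 4 each) in CastxBdf1 epiblast and ExE. All other autosomal reads had a mean CAST share between 44.4% and 45.0% in these groups. Because the rule required a low share in both crosses, genes whose share follows the parent could not enter.

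Pseudogenes made up a larger part of the set than of the eligible genes, 18.3% against 0.858%. RefSeq matched 113 of them, 101 by symbol and 12 by an older name. Of 54 eligible pseudogenes 21 (38.9%) were among the 115, against 80 of 5949 eligible protein-coding genes (1.34%) and 12 of 252 noncoding RNA genes (4.76%). Most of the set was still protein-coding, 80 genes or 69.6%. Among these, 32 (40.0%) had at least 1 annotated copy whose name is the gene's symbol followed by "-ps", against 188 of the other 5869 eligible protein-coding genes (3.20%). The converse did not hold for most such genes: of 220 with a "-ps" copy, 14.5% were in the set, and the others had a median CAST share of 41.9%.

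By family, ribosomal proteins were the largest named group. Of 64 eligible genes for cytosolic ribosomal proteins and their pseudogenes, 15 (23.4%) were in the set: Rpl7, Rpl7a, Rpl13-ps6, Rps3a1, Rplp0, Rps19, Rplp1, Rpl32l, Rps15, Rps26, Rps15a-ps6, Rpl37, Rpl35a, Rps2 and Rpl36. Rps19 had 1.14% CAST at a mean of 1433 CPM, Rplp0 2.06% at 1497 CPM, and Rps15 10.7% at 1535 CPM. The 49 other ribosomal protein genes had a median share of 44.7%, but 10 of them (20.4%) lay below 30%, against 347 (5.62%) of all 6179 eligible genes outside the set. Histone genes gave 3 of 10 (H3f3c, Hist1h2bm and Hist1h2ac), the mitochondrial respiratory chain 4 of 60 (Cox5b, Ndufs5, Atp5h and Atp5c1-ps), and detoxification enzymes 2 of 23 (Akr1b3 and Gstp1). None of 148 zinc finger genes, 17 interferon and innate immune genes, 13 small nucleolar RNA host genes or 11 protease and inhibitor genes met the rule. Families were assigned by gene symbol alone, so genes with clone names, Gm13157 among them, were not placed in these families. Genes with predicted or clone names were 33 of 464 (7.11%).

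These genes were abundant and short. Their mean level over the wild-type libraries had a median of 161 CPM and ran from 8.19 to 9140, against a median of 50.5 CPM for the other eligible genes. Of the 115, 13 (11.3%) exceeded 1000 CPM, against 126 (2.04%) of the others. CPM here scales with the number of informative bases in a gene as well as with its expression, so it is not a level per length. The median gene length was 3.90 kb, against 23.6 kb.

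Ftl1, which encodes the ferritin light chain of the iron storage complex (chr7:45457944-45459886), stood highest with 9140 CPM. Its 590539 wild-type reads were given a CAST share that rounds to 0 in every wild-type library, which limits the pooled share to at most 0.470% given the rounding of the deposited ratio. Ftl1 stood at 10675, 10369, 8264 and 11928 CPM in CastxBdf1 epiblast and ran from 1911 through 6172 to 8623 CPM in Bdf1xCast epiblast. The lowest value was again embryo 8. Next came the pseudogene Gm9385 and its host gene Gadl1 with 2465 CPM each, Rere, a transcriptional corepressor gene, with 2406 CPM, and the pseudogene LOC102638183 inside it with 2373 CPM. The 12 genes of highest level held 58.2% of the reads of the set, where reads shared by a host and its inner gene count for both. Among the 12 was also Ptges3, a cochaperone of Hsp90, with 6.12% CAST. The elongation factor gene Eef1a1 was not among the 12, with 992 CPM and 6.38%.

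For 10 of the 115 genes the recovered CAST reads summed to 0 in the wild type. In 4 of them every value could be resolved to single reads: LOC105244345 (12131 reads), Gm15776 (5851), Rpl13-ps6 (948) and H3f3c (505). A count of 0 then allows up to 0.0247%, 0.0513%, 0.316% and 0.594% CAST. For the other 6, among them Ftl1, Gm9385, Gm12338 and Mir682, some libraries had a score at its limit, and the share there is known only to within 0.5 percentage points. Such values held 75.9% of the reads of the set, against 3.26% of other autosomal reads.

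Several genes of the set lay inside another gene and shared its reads. The set held 10 pairs of a short gene within a longer one, and in each pair the host had at least as many reads as the inner gene in all 72 libraries. The inner gene accounted for 87.6% to 100% of the host's wild-type reads. Such reads enter the sums and the counts of the set for both genes. When the inner gene's reads were subtracted, the rest of the host had a CAST share of 33.4% to 48.6% in 6 hosts and 12.9% in another, and it could not be resolved in 3. Rbl1, which encodes a pocket protein related to the retinoblastoma protein, had 1.25% CAST as counted and 40.3% in the 387 reads outside the pseudogene LOC105244345. Gm13201 had 6.11% as counted and 48.6% in 607 reads outside Gm13202.

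Map2k1, which encodes a kinase of the ERK pathway (chr9:64185770-64253605), had 2.86% CAST in 65622 reads. Of those, 61809 lay in Uchl4, a single short gene within it (chr9:64235201-64236362) with 0.0809% CAST. The remaining 3813 reads had 47.9% CAST, with rounding limits of 33.2% and 62.6%. Pitpna, a phosphatidylinositol transfer protein gene, had 3.03% as counted and 47.3% (35.2% to 59.4%) in 3919 reads outside the pseudogene Gm12338. Map7 had 11.1% and then 37.2% outside Rpl32l. For Rere the limits of the remainder, 0% and 97.3%, were too wide to read, and Gadl1 and Cdh18 kept 1 and 0 reads. Gm41396 was an exception: the 474 reads outside Tuba1b, an alpha tubulin gene, still had only 12.9% CAST.

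Another 5 members lay in hosts that were not in the set. The long noncoding RNA Gm40155 supplied 89.0% of the reads of Dnajb14, whose share went from 4.84% to 43.8% once they were removed. Gm40674 supplied 93.4% of those of Col13a1, which went from 13.2% to 57.5%. Nudcd3 went from 20.5% to 56.6% without Rps15a-ps6. Strand was not recorded as used in the counting, so reads of overlapping genes are not independent, and the values of these hosts are uncertain as separate genes.

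**Figure D2:**
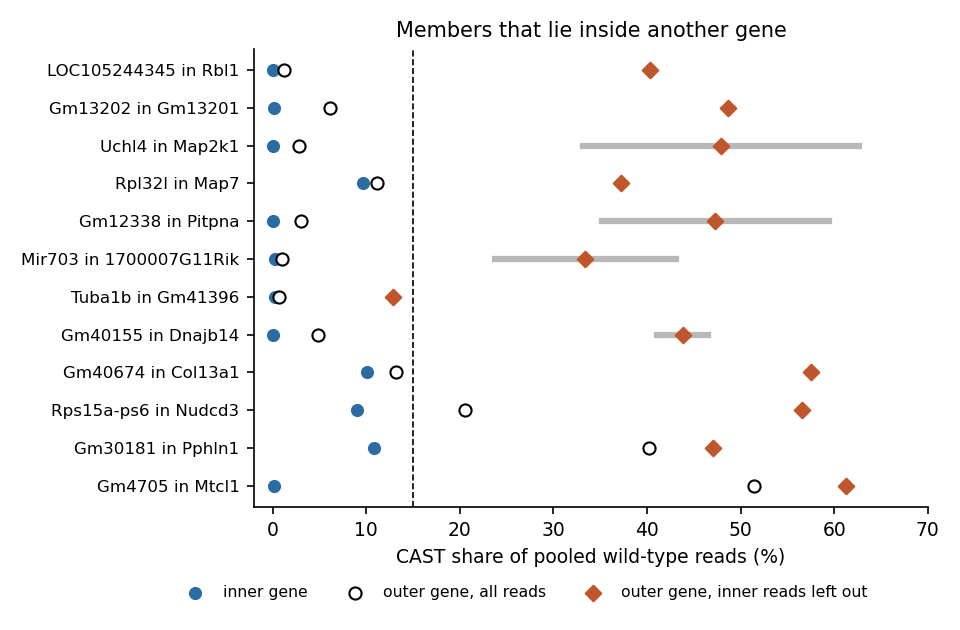
CAST share (%) of pooled wild-type reads for genes of the set that lie inside another gene: the inner gene, the host as counted, and the host after the inner gene's reads were subtracted, with bars for the rounding limits. The resolved remainders lie between 12.9% (Gm41396) and 61.3% (Mtcl1), while all inner genes lie at or below 10.8%.

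For 6 pseudogenes of the set, the gene they are named after was also measured. Gm13202, the Chchd2 pseudogene, had 0.116% CAST and Chchd2 47.8%. Atp5c1-ps had 0.0556% and Atp5c1, a subunit gene of the mitochondrial ATP synthase, 42.4%. Gm15776, the Gng5 pseudogene, had no CAST read of 5851 and Gng5 43.6%. In these 3 pairs and in Rpl13-ps6 (0% against 28.7%) the parent gene had the more even share at the same or a higher level, 90.0 to 852 CPM. The other pairs had most reads on the copy. Atp6v0c-ps2 stood at 225 CPM with 0.426% CAST against 3.17 CPM and 40.2% for Atp6v0c, a subunit gene of the vacuolar proton pump, and Rps15a-ps6 stood at 117 CPM with 9.03% against 3.22 CPM and 32.2% for Rps15a. Whether reads of a parent gene were counted on its copy in one strain only was not tested, since reads and their placement were not used here.

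The genes were spread over 18 of the 19 autosomes. Of 11 runs of neighbouring members, 10 held a nested pair, and the other joined Mir682 and Atp5c1-ps on chromosome 13. The runs of 3 were Gm41396, Tuba1b and Tuba1a on chromosome 15 and Eno1, Rere and LOC102638183 on chromosome 4.

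In the knockouts the low CAST share was largely kept. Of the 115 genes, 100 stayed at or below 15.0% in every knockout group with at least 3 libraries of 20 or more reads, and 90 had a value in all 8 groups by that minimum. The other 15 exceeded it in at least 1 group, 6 of them above 20%. By the same minimum, the highest group means were 52.2% for Gm13157 in G9a-Glp ExE, 38.2% for Stmn1 in Rnf2 epiblast, 31.1% for Gm40674 in Eed ExE, 24.3% for Fkbp14 in Rnf2 ExE, 22.0% for Hp1bp3 in G9a-Glp ExE and 20.3% for Fam103a1 in Dnmt1 ExE. The summed share ran from 2.64% in Rnf2 epiblast to 3.32% ± 0.212 (SD, n = 3) in Dnmt1 ExE.

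**Figure D3:**
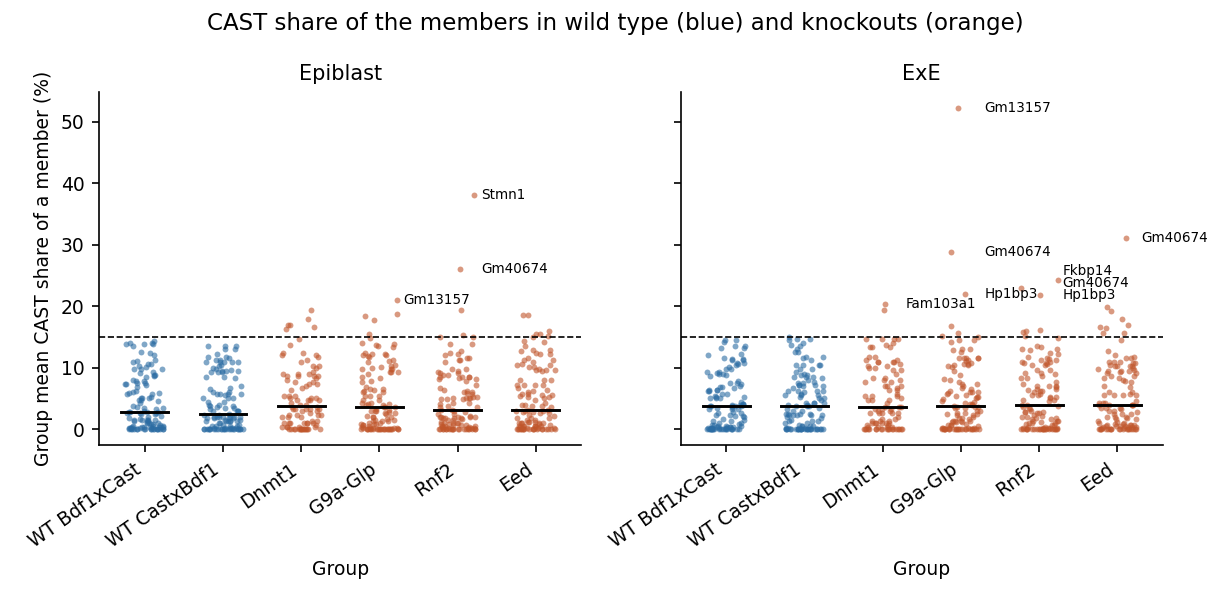
Mean CAST share (%) of each of the 115 genes in the 2 wild-type groups (blue) and 4 knockouts (orange) of each tissue, with a line at the group median and a dashed line at 15.0%. Genes above 20% are named, the highest being Gm13157 with 52.2% in G9a-Glp ExE.

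Allelic ratios were tested against wild-type Bdf1xCast of the same tissue with edgeR's quasi-likelihood test on BDF1 and CAST reads, with p-values adjusted over every gene in the fit and called below 0.05. All comparisons of a tissue share the wild-type libraries, and those libraries also chose the genes, so the calls are read only against the same share over all genes, and single genes are described below without a p against the wild type. In epiblast, 3 members were called toward CAST in Dnmt1, 4 in G9a-Glp, 2 in Rnf2 and 3 in Eed, where the calls over all genes were 0.531%, 1.14%, 0.370% and 0.719%. In ExE the members had 4, 3, 2 and 8 such calls, where all genes had 0.454%, 0.481%, 0.467% and 1.43%. Toward BDF1, the members had 0, 0, 3 and 1 calls in epiblast, against 0.377%, 0.656%, 0.326% and 0.343% of all genes. In ExE they had 2, 0, 0 and 1, against 0.402%, 0.618%, 0.444% and 1.22%. Of these 36 calls, in 20 genes, 12 had a difference of at least 5 percentage points and 5 (Mir703 and Tuba1b in Rnf2 epiblast, Rplp0 in Dnmt1 ExE, and Uchl4 in Dnmt1 and Eed ExE) were under the 1-point step of the deposited ratio.

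With the other knockouts of the tissue as the reference, no library that chose the genes entered. In epiblast 0 members were then called in Dnmt1, 0 in G9a-Glp, 2 in Rnf2 and 0 in Eed, against 0.275%, 0.211%, 0.155% and 0.00958% of all genes. For the counts of 0, edgeR gave 13, 13 and 8 members at an unadjusted p under 0.05. In ExE they had 0, 2, 1 and 1 calls, against 0.0513%, 1.48%, 0.0951% and 1.16%, with 11 members at an unadjusted p under 0.05 for Dnmt1. The share of all genes at that unadjusted p was not computed in either tissue, so those counts are not read as a result. The calls past the adjusted threshold were Eef1a1 and Tuba1b (Rnf2 epiblast), Gm13157 and Akr1b3 (G9a-Glp ExE), Hist1h2ac (Rnf2 ExE) and Phgdh (Eed ExE). Of these, Gm13157 alone went toward CAST. In Rnf2 epiblast the share of Tuba1b rounded to 0 in all 6 libraries, each with its score at the limit. Its CAST reads there are known only to within 0.5 percentage points. Rnf2 libraries reached 17653087 informative reads in epiblast and 10263280 in ExE, against at most 3976031 in the other groups. A score reaches its limit more readily with more reads, and the part of depth in the Rnf2 calls was not tested.

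Gm13157, a predicted protein-coding gene on chromosome 4 (147753974 to 147809788), showed the largest allelic difference. In wild-type Bdf1xCast ExE its CAST share was 0% at the lowest, 4.00% at the median and 21.9% at the highest, with a mean of 5.69% ± 7.31 (SD, n = 7). In G9a-Glp ExE it ran from 28.6% through 51.8% to 86.2%, with a mean of 52.0% ± 18.1 (n = 8). All 8 knockout libraries lay above all 7 wild-type libraries, but those 7 form a group that chose the gene by its low share.

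Read by allele, its CAST reads stood at 0.791 ± 0.842 CPM in wild-type Bdf1xCast ExE and at 10.6 ± 4.73 CPM in G9a-Glp ExE, with no overlap between the highest wild-type value of 2.50 and the lowest knockout value of 4.85. The wild-type side here is also from the group that chose the gene. Its BDF1 reads stood at 15.0 ± 6.19 CPM and 10.5 ± 6.27 CPM, which overlap. Against the other ExE knockouts, none of which chose the gene, the allelic ratio was higher by 3.35 ± 0.39 (SE) on the log2 scale (edgeR, adjusted p = 1.37e-06). In G9a-Glp epiblast the CAST reads of Gm13157 reached 2.93 ± 1.41 CPM (n = 6) against 1.02 ± 0.678 (n = 7), which edgeR's allelic test did not call.

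Gmeb2, which encodes a DNA-binding protein of the glucocorticoid modulatory element (chr2:181251449-181287974), differed in both measures. In wild-type Bdf1xCast ExE its level ran from 35.4 through 37.6 to 214 CPM, and in Eed ExE from 6.54 through 9.38 to 20.5 CPM. The groups did not overlap (edgeR, log2 change −2.93 ± 0.38 SE, adjusted p = 5.09e-06). Its CAST share was 2.22% ± 1.48 (n = 7) in the wild type and 19.7% ± 14.1 (n = 10) in Eed ExE, with overlap. Read by allele, the BDF1 reads of Gmeb2 were 69.6 ± 66.1 and 9.06 ± 4.90 CPM, while the CAST reads were 1.23 ± 0.751 and 1.80 ± 1.09 CPM.

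In other knockouts, the CAST share of Gmeb2 was 13.8% ± 3.77 (n = 6) in G9a-Glp epiblast against 2.69% ± 1.77 (n = 7), above every wild-type library, though these chose the gene. It was 14.3% ± 5.87 (n = 5) in Rnf2 ExE against 2.22% in the wild type. Its CAST reads ranged from 0.284 to 3.79 CPM over all 35 epiblast libraries, and its BDF1 reads from 6.78 to 332. With the other knockouts as reference, none of these allelic differences was called (edgeR). The level of Gmeb2 was lower than wild type in 7 of the 8 knockout comparisons, and the 2 highest wild-type values, 334 and 214 CPM, both belonged to embryo 8.

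Gm40674, a long noncoding RNA gene inside Col13a1 on chromosome 10, exceeded 15.0% CAST in 6 knockout groups. Its share was 11.2% ± 7.51 (n = 7) in wild-type ExE and 32.0% ± 12.2 (n = 9) in Eed ExE, with overlap. Hp1bp3, which encodes a protein that binds heterochromatin protein 1, had 5.06% ± 3.51 (n = 7) in wild-type epiblast and 22.6% ± 11.9 (n = 6) in G9a-Glp epiblast, with overlap. Gm13201 had 14.1% ± 11.2 (n = 7) in wild-type epiblast and 3.91% ± 1.39 (n = 9) in Eed epiblast, also with overlap. With the other knockouts as reference edgeR called none of these 3, and limma on log2 ratios did not call them against the wild type either. The share of Gm13201 depends on how many of its reads come from the nested Gm13202.

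Smaller differences from the wild type were seen in Ndufs5, Oaz1 and Map2k1. Ndufs5, a subunit gene of respiratory complex I, had 3.51% ± 0.697 CAST (n = 7) in wild-type epiblast and 7.94% ± 1.06 (n = 3) in Dnmt1 epiblast, with no overlap, though the wild-type libraries chose the gene. Oaz1, which encodes the antizyme that inhibits ornithine decarboxylase, had 5.24% ± 0.566 (n = 7) in wild-type ExE and 9.70% ± 1.63 (n = 3) in Dnmt1 ExE. Map2k1 had 3.71% ± 1.12 and 10.7% ± 1.58 there, while the level of Uchl4 inside it was 779 ± 137 and 332 ± 50.3 CPM. With the other knockouts as reference, edgeR called none of these allelic differences.

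Stmn1, which encodes the microtubule regulator stathmin (chr4:134468320-134473843), differed between embryos of the same group. In wild-type Bdf1xCast epiblast it had 293, 642, 369 and 468 reads in embryos 1, 2, 3 and 7, with 6, 28, 5 and 12 CAST reads. In embryos 4, 6 and 8 it had only 19, 18 and 9 reads, of which 11, 8 and 9 were CAST. Those 3 embryos fell under the minimum of 20 reads, so the share that chose the gene rests on the other 4. All 4 wild-type CastxBdf1 epiblast libraries of Stmn1 had many reads (286 to 444) and few CAST reads (3 to 11).

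Over all 35 epiblast libraries, the BDF1 reads of Stmn1 fell into separate ranges, 0 to 17.4 CPM in 15 libraries and 107 to 261 CPM in 20, a pattern noticed in these data. In ExE the ranges were 0 to 3.87 CPM in 13 libraries and 13.8 to 80.2 CPM in 24. Of 31 embryos with both tissues, 11 were in the lower range in both, 20 in the upper range in both, and 0 differed. Pairing by the number in the library titles instead, which changes 3 Eed pairs and joins tissues of different labelled sex in 2 of them, gave 10, 20 and 1. Embryos of the lower range were found in wild-type Bdf1xCast (4, 6 and 8) and in every knockout, and 0 of 4 were found in CastxBdf1. The CAST reads of Stmn1 stayed between 1.14 and 12.7 CPM in all epiblast libraries. The higher group means of its share in the knockouts, such as 38.2% in Rnf2 epiblast, are means over embryos of both ranges, and edgeR called the allelic ratio in none of the 7 knockout groups in which it could be tested.

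**Figure D4:**
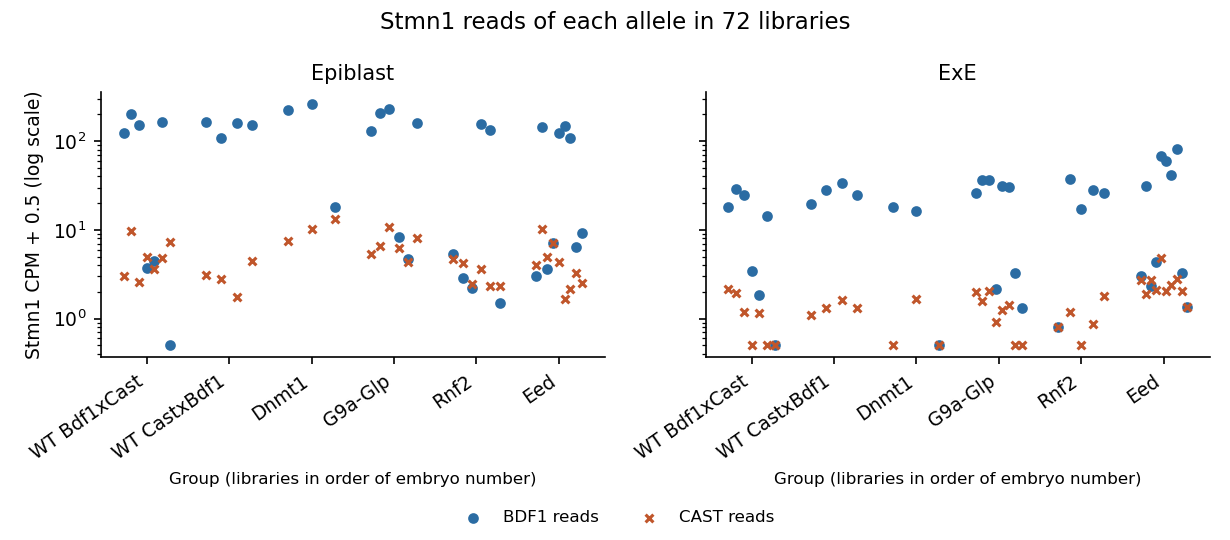
Stmn1 CPM plus 0.5 (log scale) for the BDF1 allele (dots) and the CAST allele (crosses) in each library, by group and in order of embryo number. BDF1 reads form a lower and an upper range in each tissue, and all wild-type CastxBdf1 libraries lie in the upper range.

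The level of the set was compared next, on the summed reads of both alleles, which the rule did not use beyond the read minimum. All 115 genes entered each edgeR fit. In Dnmt1 epiblast 4 were higher and 27 lower than wild-type Bdf1xCast, against 6.94% and 7.16% of all genes. In G9a-Glp epiblast 22 were higher and 33 lower, against 19.6% and 15.0%. In Rnf2 epiblast 21 were higher and 17 lower, against 18.0% and 13.0%. In Eed epiblast 16 were higher and 42 lower, against 19.2% and 16.5%. As percentages of the 115, the lower calls were 23.5%, 28.7%, 14.8% and 36.5%. A host and its inner gene, which share most reads, count separately in these numbers and in those for ExE. No count took each nested pair once.

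In ExE, 9 were higher and 41 lower in Dnmt1, against 8.54% and 9.96% of all genes. The counts were 7 and 6 in G9a-Glp, against 8.50% and 6.66%, and 10 and 10 in Rnf2, against 12.2% and 9.99%. In Eed ExE 9 were higher and 31 lower, against 22.7% and 18.1%. The lower calls were 35.7%, 5.22%, 8.70% and 27.0% of the 115. The median log2 change of the set was −0.51 in Dnmt1 ExE and −0.30 in Eed ExE, and between −0.22 and −0.01 in the other knockouts, while the median of all genes lay between −0.03 and 0.02. The members are more abundant than most genes, and the call rate at an equal level was not tested. They also needed reads in every wild-type group, while genes read mainly in a knockout could enter the fits. Such genes can be called higher but could not be members, and shares over the eligible genes alone were not computed.

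Markers of neighbouring cell types also differed between groups. The summed level of 8 visceral endoderm markers in epiblast libraries ran from 5.03 through a median of 8.26 to 461 CPM in wild-type Bdf1xCast, with 1 CastxBdf1 library at 2461, and the medians were 43.6 in Dnmt1, 76.9 in G9a-Glp, 23.6 in Rnf2 and 29.2 CPM in Eed. In ExE libraries their median was 20.4 CPM in wild-type Bdf1xCast and 39.2, 54.3, 40.0 and 47.6 CPM in the same knockouts. The 8 ExE markers summed to 588 to 1055 CPM in wild-type Bdf1xCast ExE (median 706) and 313 to 659 CPM in Eed ExE (median 420). The part of these cell types in the level changes was not tested.

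Several of these counts moved with single libraries. Without the wild-type libraries that stand apart, 13 genes were higher and 39 lower in Dnmt1 epiblast, 13 and 51 in Dnmt1 ExE, 24 and 14 in Rnf2 ExE, and 7 and 14 in Eed ExE. Without the knockout libraries set aside for their targeted mRNA, the counts were 3 and 20 in Dnmt1 ExE, 20 and 25 in G9a-Glp epiblast, and 3 and 1 in Rnf2 ExE. Leaving out any 1 of the 3 Dnmt1 epiblast libraries left 13 to 16 calls of 31, and any 1 of the 3 Dnmt1 ExE libraries left 14 to 23 of 50. The shares of all genes in these settings are not given, so the counts show only how far the calls among members move.

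**Figure D5:**
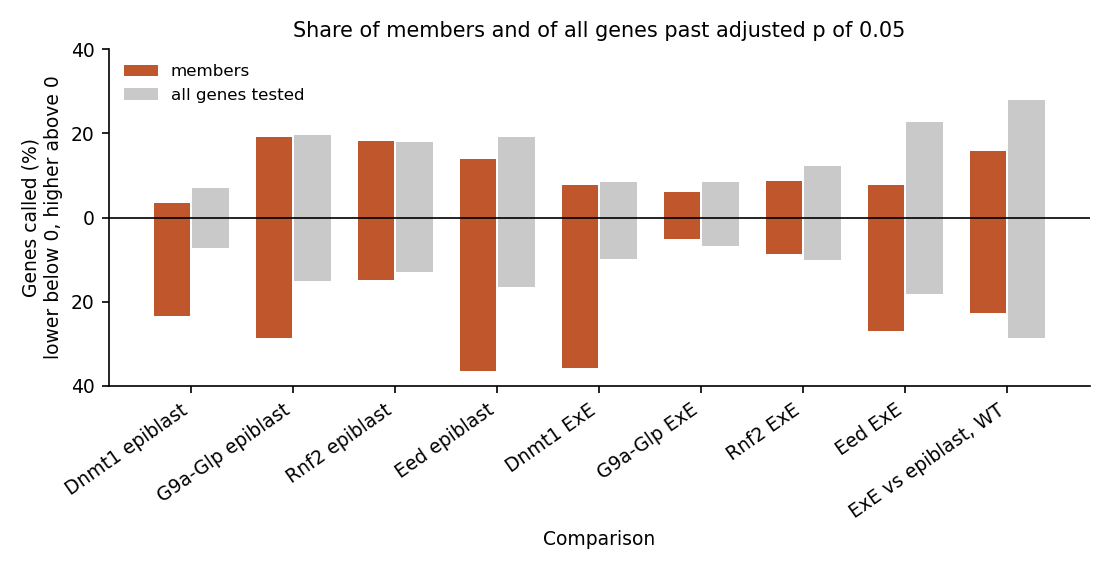
Percentage of the 115 genes and of all genes tested that passed an adjusted p of 0.05 (edgeR), higher above 0 and lower below 0, in 8 knockout comparisons and for wild-type ExE against epiblast. Lower calls reached 36.5% of the 115 genes in Eed epiblast, against 16.5% of all genes.

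Calls recurred in a few genes. H3f3c, Atp6v0c-ps2, Rps2 and Tuba1a were higher in 7 of the 8 knockout comparisons, which share their wild-type libraries within a tissue. How many of all genes recur as often was not counted, so recurrence is not read as a trait of the set. H3f3c, a gene of the histone H3.3 family, had 4.00 to 8.89 CPM in wild-type ExE (median 6.18, n = 7) and 9.10 to 38.1 CPM in Eed ExE (median 17.7, n = 10). The groups did not overlap (edgeR, log2 change 1.36 ± 0.26 SE, adjusted p = 0.000348). Tuba1a, an alpha tubulin gene, stood at 15.6 ± 13.4 CPM (n = 7) in wild-type epiblast and 68.1 ± 18.9 CPM (n = 6) in Rnf2 epiblast, with no overlap (edgeR, adjusted p = 0.00252).

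Atp6v0c-ps2 ran from 10.7 through 97.4 to 165 CPM in wild-type epiblast and from 311 through 490 to 636 CPM in Eed epiblast (edgeR, log2 change 2.24 ± 0.31 SE, adjusted p = 2.87e-05). It was also above all wild-type epiblast libraries in G9a-Glp, with 491 ± 169 CPM, and in Rnf2, with 447 ± 194 CPM. Rps2, a gene of the small ribosomal subunit, stood at 209 ± 107 CPM in wild-type epiblast and 684 ± 50.9 CPM (n = 6) in G9a-Glp epiblast, with no overlap (edgeR, adjusted p = 0.00228). The lowest wild-type epiblast values of Tuba1a, Atp6v0c-ps2 and Rps2, with 0.762, 10.7 and 22.1 CPM, all belonged to embryo 8.

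The genes lower in 7 of 8 comparisons were Gmeb2, LOC108168883, Map2k1, Uchl4, Fcf1, a ribosomal RNA processing gene, and Ptges3. Map2k1 and Uchl4 share most reads and are not separate findings. Uchl4 ran from 958 through 1457 to 1502 CPM in wild-type epiblast and stood at 527, 577 and 588 CPM in Dnmt1 epiblast, below every wild-type library (edgeR, log2 change −1.50 ± 0.21 SE, adjusted p = 0.000684). LOC108168883 ran from 91.5 through 203 to 525 CPM in wild-type epiblast and from 17.5 through 37.7 to 73.0 CPM in G9a-Glp epiblast, also without overlap (edgeR, adjusted p = 6.23e-05). Of the 115 genes, 33 were called in no knockout comparison, and 3 were called higher in one and lower in another. The same counts over all genes were not made.

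Other large changes of level were called in fewer knockouts. Dppa5a, a gene of pluripotent and germ cells, ran from 21.4 through 46.5 to 117 CPM in wild-type epiblast and from 73.6 through 451 to 990 CPM in Rnf2 epiblast, with overlap (edgeR, log2 change 2.86 ± 0.58 SE, adjusted p = 0.00153). Gm40003, a long noncoding RNA gene on chromosome 2, stood at 25.2 ± 5.09 CPM (n = 7) in wild-type epiblast and at 59.0, 72.7 and 110 CPM in Dnmt1 epiblast, above all 7 others (edgeR, adjusted p = 0.00126). In ExE the gene stood at 19.7 ± 5.22 CPM (n = 7) in the wild type and 59.4 ± 24.6 CPM (n = 8) in G9a-Glp, again without overlap (edgeR, adjusted p = 0.000619).

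Ribosomal protein genes were called in and outside the set. In Dnmt1 ExE 1 was higher and 6 lower among the 15 of the set, and 1 and 14 among the 49 others, with median log2 changes of −0.69 and −0.57. In Eed ExE the counts were 1 and 5, and 1 and 14, with medians of −0.34 and −0.38. In Rnf2 epiblast 5 and 0 were called, and 7 and 3 among the 49, with medians of 0.28 and 0.12. Whether the 2 sets differ was not tested.

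Between the tissues of wild-type Bdf1xCast embryos, 18 of the 115 genes were higher in ExE and 26 lower, against 27.9% and 28.7% of all genes. The rule asked for reads in both tissues, so tissue-specific genes could not be members but are among all genes tested. Shares over the eligible genes alone were not computed, so the lower call rate is not read as a trait of the set. Gm40674 was lower in ExE, with 82.6 to 417 CPM in epiblast (median 148) and 5.50 to 32.2 CPM in ExE (median 8.23), without overlap (edgeR, log2 change −3.64 ± 0.43 SE, adjusted p = 1.15e-06). LOC108168883 had 223 ± 141 CPM in epiblast and 21.8 ± 13.0 in ExE (n = 7 each; edgeR, adjusted p = 1.09e-06). The tissue fit did not pair the libraries of an embryo, and the number of calls with the embryo as a block is given at the end. Atp6v0c-ps2 was higher in ExE, with 311 ± 132 against 91.7 ± 47.4 CPM, and so was Impdh2, the gene of an enzyme of guanine nucleotide synthesis, with 55.9 ± 16.3 against 22.9 ± 11.7 CPM. Without the wild-type libraries that stand apart, 25 were higher and 62 lower. The share of all genes in that setting is not given, so these counts are not read against all genes. In bulk samples, fewer cells of a type and less RNA per cell cannot be told apart.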

How the data were processed

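RNA of epiblast and ExE from single E6.5 embryos was made into SMART-Seq v4 cDNA and Nextera XT libraries and sequenced in paired ends, per the labels' protocols. The submitters' processing notes name STAR 2.5.0 and HTSeq, without their roles. The authors deposited 3 values for each of 30546 genes in 72 libraries on mm10: the count of reads over strain polymorphisms, unnormalized, an allelic ratio (the CAST share minus 0.5, rounded to whole percentage points), and an allelic score (a signed −log10 binomial p-value). All columns were mapped to samples. A G9a-Glp ExE bisulfite sample was not analysed here.

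CAST reads were recovered as the whole number that fits ratio and score (712101 of 712329 scored values, 99.968%). For 3320 values, with 7.48% of reads, the score was at its limit and CAST reads are known only to ±0.5 percentage points. CPM is the count scaled to 1000000 informative reads of a library. Intervals and floors cover counting error only.

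The members, gene lists and tests were chosen with earlier results of these data known. Genes were named by rule: the 12 members of highest level, the 5 of lowest pooled share with at least 1000 reads, up to 3 in each direction per level comparison and up to 3 per allelic comparison by size of change, those next to the limit, and recurrent or outlying members. Gm26901 is always named. The Stmn1 pattern was examined after its values were seen.

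Tests used edgeR 4.0.16 in R 4.3.3 (TMM, filterByExpr, quasi-likelihood, two-sided, Benjamini-Hochberg over all genes, threshold 0.05), checked on simulated data. Allelic fits had a term for each library and kept genes that reached 10 reads in 3 libraries of both groups. Each fit held a knockout and its wild-type Bdf1xCast counterpart of that tissue. Alternatives were DESeq2 1.42.0, limma 3.58.1, no filter, a replicate block and libraries left out. Epiblast and ExE libraries with the same embryo number come from 1 embryo, per the labels (the titles of 3 Eed pairs carry other numbers), and their deviations correlated at 0.0201 to 0.470 in 7 wild-type Bdf1xCast pairs. Replicate numbers shared between genotypes do not pair embryos. Nothing says that embryos came from separate litters, so p-values measure the spread between these embryos. SEs are the log2 change divided by the square root of edgeR's F.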

Additional observations from a re-analysis of the deposited data

Results flagged for a closer look

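In groups of 4 to 10 libraries, 80 were tested for a library whose gap to its neighbour is large for the range of the group, which chance gives in about 1 of 20, and 13 were found. Embryo 8 of wild-type Bdf1xCast was the highest for the share of reads in the 115 genes in epiblast (5.64%, next 5.12%), for Gm40155 in epiblast (803 CPM, next 209), and for Gmeb2 in epiblast (334 CPM, next 89.4) and ExE (214 CPM, next 96.0). Tuba1a was highest in wild-type Bdf1xCast ExE embryo 4 (49.1 CPM, next 22.6).

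Among the knockouts, Uchl4 was highest in G9a-Glp ExE embryo 9 (1102 CPM, next 766), as was Gm40155 (172 CPM, next 37.3). Gm40155 was also highest in the library labelled Rnf2 ExE embryo 6 (54.5 CPM, next 16.4), in Eed epiblast embryo 8 (185 CPM, next 72.0) and in Eed ExE embryo 7 (118 CPM, next 64.8). Those 2 libraries are labelled as embryos of different sex, although both titles open with the number 30. Gmeb2 was highest in Eed epiblast embryo 8 (73.2 CPM, next 21.1). The share of reads in the 115 genes was highest in Eed ExE embryo 10 (5.63%, next 4.37%). The summed CAST share was highest in the library labelled Rnf2 ExE embryo 5 (4.30%, next 3.16%), in which the rounded share of Ftl1 was 1% and not 0.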

How the results depend on the processing

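Of the recomputed counts, 129 stayed within 1.5 times their value and 45 did not. Those 45 are given here, and the cause was not tested unless the setting itself removes libraries. The shares of all genes in these settings are not given beside them. Without the wild-type libraries that stand apart, a setting chosen after seeing the data, level calls were 52 in Dnmt1 epiblast, 38 in Rnf2 ExE, 21 in Eed ExE and 87 between tissues, and allelic calls 5 in Dnmt1 epiblast, 1 in G9a-Glp ExE and 3 in Eed ExE. Without the knockout libraries set aside for their targeted mRNA, level calls were 23 in Dnmt1 ExE and 4 in Rnf2 ExE. That setting was also chosen after seeing the data, and it gave 2 allelic calls in G9a-Glp epiblast and 1 in Rnf2 ExE. DESeq2 gave 21 level calls and no filter gave 24 in G9a-Glp ExE, against 13. limma on log2 ratios gave 9 allelic calls in Rnf2 epiblast, 0 in Eed epiblast, 3 in Dnmt1 ExE, 1 in G9a-Glp ExE and 3 in Eed ExE. With the other knockouts as reference, allelic calls in epiblast were 0 (Dnmt1), 0 (G9a-Glp), 2 (Rnf2) and 0 (Eed), and in ExE 0 (Dnmt1), 1 (Rnf2) and 1 (Eed). The same reference turned the sign for Gm40674 in G9a-Glp (−0.07) and Eed epiblast (−0.28), for Gmeb2 in G9a-Glp (−0.92) and Rnf2 ExE (−0.08), for Gm33682 in G9a-Glp ExE (−0.01) and for Ndufs5 in Rnf2 ExE (−0.02).

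Leaving out 1 library at a time gave 13 to 52 level calls in Dnmt1 epiblast, 14 to 53 in Dnmt1 ExE and 14 to 23 in Rnf2 ExE, and 1 to 5, 2 to 5 and 1 to 3 allelic calls. The set itself held 110 to 116 genes. It held 86 genes at a limit of 0.10, 152 at 0.20, 88 with a minimum of 50 reads and 118 from pooled reads. Depth limits single genes most in Dnmt1, where 110 and 108 of the 115 genes had enough reads for the allelic test.

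Replicate numbers shared between a knockout and the wild type are only numbers, with correlations of deviations from −0.411 to 0.396. With them as a replicate block, level calls were 11 in Rnf2 epiblast, 36 in Eed epiblast, 27 in G9a-Glp ExE and 7 in Rnf2 ExE, and allelic calls 6 in Dnmt1 epiblast and 2 in Rnf2 epiblast. Between tissues, where the number names the embryo, the block gave 54 calls against 44.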
